A study of Mus musculus with 7 samples.

Results

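Hox genes encode homeodomain transcription factors that give positions along the body axis their identity. The 39 Hox genes described here are the protein-coding genes of the mouse genome (mm10) whose symbol is Hoxa, Hoxb, Hoxc or Hoxd followed only by a number, of 21883 protein-coding genes in all. They lie in 4 clusters: Hoxa on chromosome 6 (11 genes, 105.514 kb), Hoxb on chromosome 11 (10 genes, 173.939 kb), Hoxc on chromosome 15 (9 genes, 115.726 kb) and Hoxd on chromosome 2 (9 genes, 96.918 kb). A peak was taken as a Hox peak when its midpoint lay inside one of these genes, or within 100 kb with that gene as the nearest protein-coding gene.

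Open chromatin was mapped by ATAC-seq, which cuts accessible DNA with a transposase, in RAW264.7, a mouse macrophage-like line from a virus-induced tumour that forms osteoclasts when given the cytokine RANKL. There were 2 libraries of cells given RANKL (50 ng/ml) together with I-BET (500 nM), an inhibitor of the BET family of chromatin readers, 2 libraries of cells given RANKL (50 ng/ml), 1 library of cells given I-BET (500 nM) without RANKL, and 2 libraries of untreated cells. Treated cells were collected after 4 h, and no vehicle is named for the untreated cells. Every group is the same line, and the labels leave it unsaid whether replicates were separate cultures, so the spread between them may be technical.

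Within each Hox cluster the genes stand in the order in which they are used along the body axis, and they are numbered into paralog groups, from the anterior low numbers to the posterior high ones. Where a cluster is silent it is held by Polycomb proteins, and trithorax proteins of the MLL family keep active members on. In blood, Hoxa and Hoxb members are used mainly by stem and progenitor cells and are turned down as cells mature, while blocked maturation in leukaemia often goes with high Hoxa9 and Meis1.

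A Hox gene was called open when a peak overlapped its body, or the 1 kb on either side, in all 7 libraries, and closed when no library had such a peak. Of the 39 Hox genes 11 were open, 7 were closed and 21 had a peak in some libraries. Over all protein-coding genes 67.5% were open and 17.3% closed by the same rule. The open genes included Hoxa3, Hoxa4 and Hoxa10, then Hoxb3, Hoxb4, Hoxb6, Hoxb7 and Hoxb8, then Hoxd3 and Hoxd4. The closed genes were Hoxa5, Hoxb1, Hoxb5, Hoxd1, Hoxd8, Hoxd9 and Hoxd13.

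The starts of genes at both ends of this range are shown here because open and closed members did not divide by CG content, which marks most vertebrate promoters. Of the 39 genes 22 had an entry in the RefSeq promoter table (GRCm38.p6, 250 bases before to 50 after each start), with 24 starts in all. Hoxa3 (chr6:52213018-52213317, minus strand) and Hoxb4 (chr11:96318017-96318316, plus strand) had a peak over the start in all 7 libraries. Hoxa5 (chr6:52204538-52204837, minus strand) and Hoxd1 (chr2:74762730-74763029, plus strand) had one in none, yet their windows hold more CG. Capitals mark CG dinucleotides, the sites of DNA methylation.
Hoxa3: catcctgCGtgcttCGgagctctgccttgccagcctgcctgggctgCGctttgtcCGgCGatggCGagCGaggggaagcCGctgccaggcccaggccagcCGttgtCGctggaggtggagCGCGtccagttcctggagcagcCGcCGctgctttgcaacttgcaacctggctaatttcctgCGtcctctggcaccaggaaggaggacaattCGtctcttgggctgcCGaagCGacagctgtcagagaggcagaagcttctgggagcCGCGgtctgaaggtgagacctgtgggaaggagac
Hoxb4: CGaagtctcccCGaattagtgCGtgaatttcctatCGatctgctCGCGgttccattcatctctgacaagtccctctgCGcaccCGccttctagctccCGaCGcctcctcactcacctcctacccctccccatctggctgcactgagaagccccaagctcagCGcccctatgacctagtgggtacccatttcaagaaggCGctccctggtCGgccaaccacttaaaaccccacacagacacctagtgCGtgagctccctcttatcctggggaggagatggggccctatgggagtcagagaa
Hoxa5: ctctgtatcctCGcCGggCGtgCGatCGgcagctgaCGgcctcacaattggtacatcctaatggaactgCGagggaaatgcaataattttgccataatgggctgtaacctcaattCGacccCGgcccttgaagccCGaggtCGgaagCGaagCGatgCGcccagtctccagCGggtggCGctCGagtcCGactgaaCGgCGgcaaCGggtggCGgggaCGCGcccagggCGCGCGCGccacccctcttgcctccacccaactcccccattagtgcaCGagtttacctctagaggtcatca
Hoxd1: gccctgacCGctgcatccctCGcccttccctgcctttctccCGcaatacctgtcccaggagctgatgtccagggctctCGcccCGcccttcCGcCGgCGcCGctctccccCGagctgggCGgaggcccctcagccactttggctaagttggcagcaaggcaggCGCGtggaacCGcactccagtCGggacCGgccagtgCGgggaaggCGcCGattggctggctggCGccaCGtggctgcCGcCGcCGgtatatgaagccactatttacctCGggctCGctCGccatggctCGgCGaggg

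The open Hoxa3 and Hoxb4 windows hold 20 and 14 CG, and the closed Hoxa5 and Hoxd1 windows hold 29 each. The other closed genes with an entry lie on both sides, with 37 at Hoxd13, 20 at Hoxd9, 10 at Hoxb1 and 6 at Hoxd8. The other open genes with an entry hold 20 at Hoxd3, 13 at Hoxb8, 4 at Hoxd4, and 12 and 21 at the Hoxa10 starts. Hoxb8, Hoxd3 and Hoxd4 were open without a peak over this start in any library, since an open call takes in the whole gene. The Hox starts in this promoter table carried a peak less often than the other starts in it. The 17 Hox genes without an entry, among them the open Hoxa4, Hoxb3, Hoxb6 and Hoxb7, are outside these shares. A peak lay over 2 of the 24 Hox starts in all 7 libraries (8.33%), over 3 in some libraries and over 19 in none (79.2%). Over all 21262 starts of protein-coding genes in the table, 49.1% had a peak in all 7 libraries and 36.1% had none. The 3 in between were the longer Hoxa10 transcript (6 libraries), Hoxa13 (6) and Hoxc4 (5).

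CG content was higher at Hox starts without a peak than at other starts without one. Hox starts with no peak held a median of 15 CG in 300 bases, against 3 at protein-coding starts with no peak and 22 at those with a peak in all 7 libraries. Over all 24 Hox starts the median was 14.5, against 13 over all protein-coding starts. Hoxd13, with 37, was the richest of those without a peak, and the start of Hoxa13 held 45, the most among Hox genes.

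**Figure D1:**
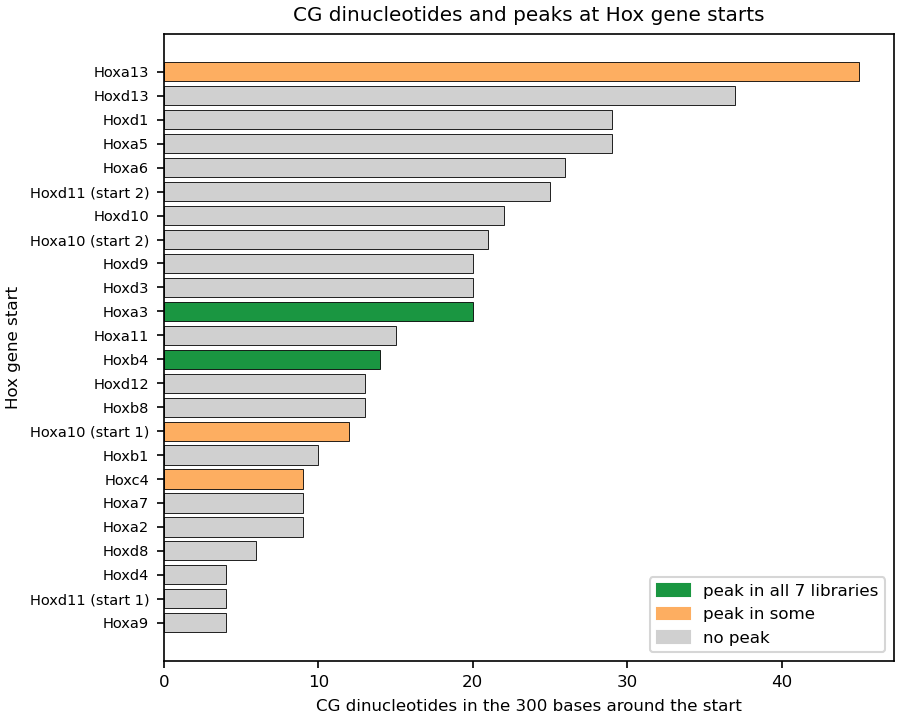
CG dinucleotides (x axis, number in the 300-base window) at each of the 24 Hox gene starts in the RefSeq table, 1 bar a start, coloured by whether a peak lay over it in all 7 libraries, in some or in none. Starts without a peak run from 4 CG at Hoxd4 and Hoxa9 to 37 CG at Hoxd13, and the only 2 starts with a peak in all 7 libraries lie in the middle of the range, at 20 (Hoxa3) and 14 (Hoxb4).

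Short motifs were searched on both strands of the same windows, and no motif holds another one. The CCAAT box (CCAAT) was in 15 of 24 Hox starts (62.5%), against 38.2% of all protein-coding starts. The E-box CACGTG was in 5 Hox starts (20.8%), against 7.84%. TATAAA was in 4 (16.7%) against 12.6%, the PU.1-type GAGGAA in 4 (16.7%) against 27.4%, the Hox and Pbx motif TGATTNAT in 2 (8.33%) against 2.75%, and the AP-1 motif TGANTCA in 1 (4.17%) against 6.99%. Of these motifs 0 lay in the Hoxa3 and Hoxb4 windows. The matches describe letters in a window and say nothing on whether a factor was bound there.

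**Figure D2:**
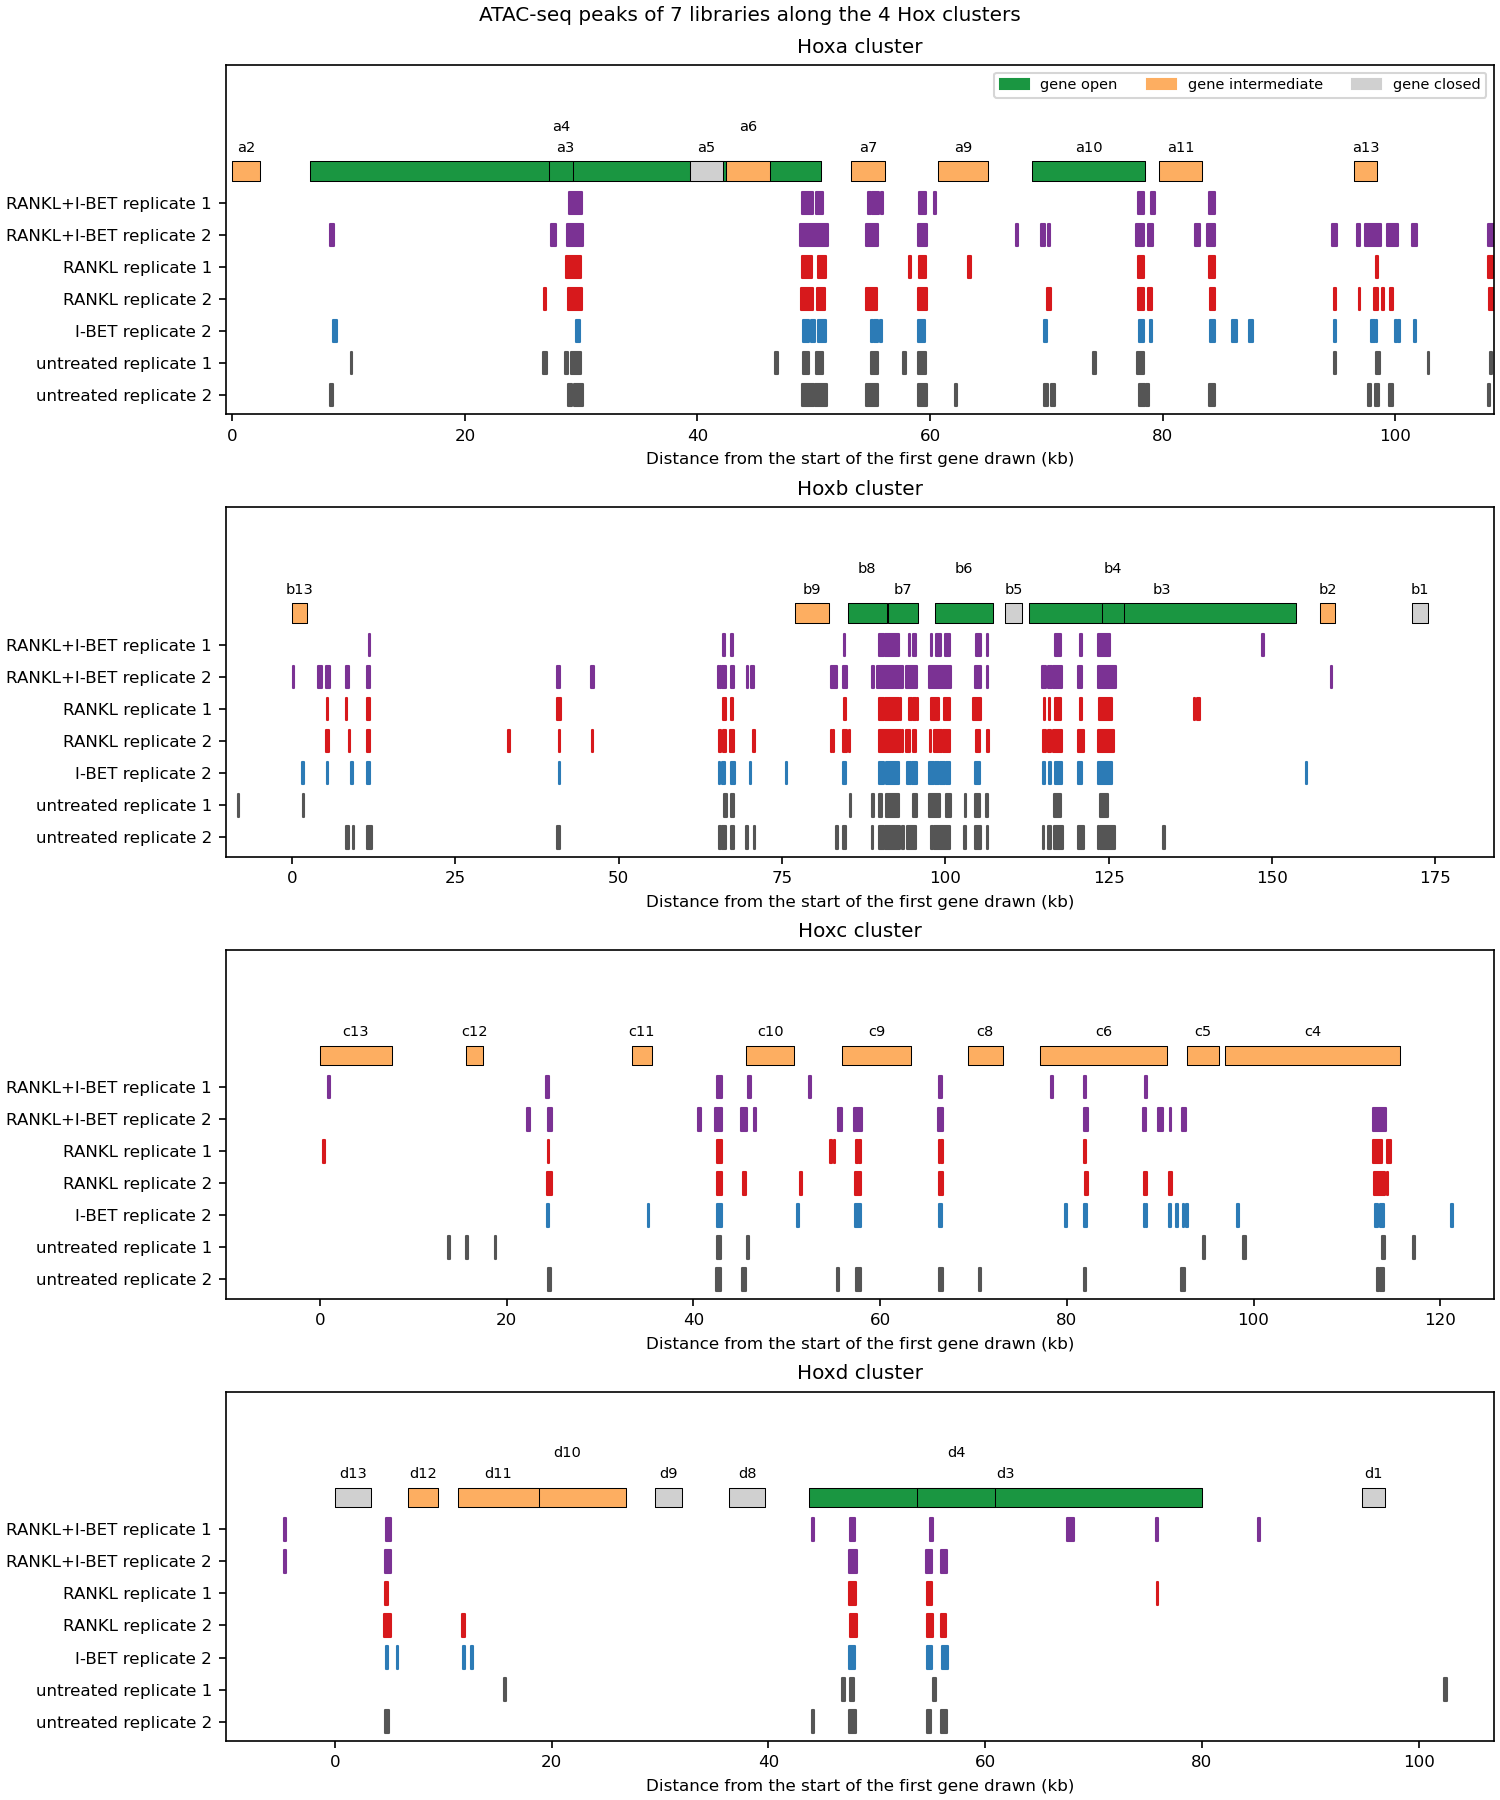
Peaks of the 7 libraries (rows, coloured by treatment) along the 4 Hox clusters, with genes drawn above them to scale and coloured as open, intermediate or closed. The x axis is the distance in kb from the start of the first gene drawn, so the genes run from Hoxa2 to Hoxa13 in the top panel and from high to low numbers in the others. Peaks shared by all rows stand inside Hoxa3, beside Hoxa9 and from Hoxb8 to Hoxb4, and in the Hoxc panel 1 shared column lies inside the cluster, beside Hoxc10.

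The maps of the clusters show that open genes were unevenly spread over paralog groups. All 3 members of group 3 were open (Hoxa3, Hoxb3 and Hoxd3), and 3 of 4 of group 4 (Hoxa4, Hoxb4 and Hoxd4, but not Hoxc4). The group 3 genes are also the longest Hox genes, at 44009, 40830 and 36279 bp, against a median of 3737 bp. Their bodies contain Hoxa4, Hoxb4 and Hoxd4, and that of Hoxa3 also holds the closed Hoxa5. The part of length and overlap in this pattern was not tested. Of the anterior groups 1 to 4, 7 of 12 genes were open, of the central groups 5 to 8, 3 of 11, and of the posterior groups 9 to 13, 1 of 16. Hoxa10, which acts in the uterus and in early myeloid cells, was the posterior exception. Some of these calls changed with the rule. With a -log10 q of 5 or more Hoxa10, Hoxd3 and Hoxd4 were no longer open. In lists of equal length Hoxd4 was lost, and without the 1 kb margin Hoxa4 was. When a peak's midpoint had to lie within 1 kb of a gene end, Hoxd3 was not open, and Hoxb3 and Hoxd4 were closed. The neighbouring genes outside the clusters were mostly open, 21 of 24, and the exceptions included both Evx genes, homeobox genes that cap the Hoxa and Hoxd clusters (Evx1 in 1 library, Evx2 in 0).

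Some of the 11 open genes shared the region that made them open. Overlapping and touching peaks of all libraries were joined into regions, 344401 in all, of which 159 were at Hox genes. The 11 open genes drew on 12 distinct regions called in all 7 libraries, and 4 of these served a pair of neighbours: Hoxa3 with Hoxa4, Hoxb3 with Hoxb4, Hoxb7 with Hoxb8, and Hoxd3 with Hoxd4. Hence 4 open genes had no such region of their own. Open genes were also longer, with a median of 7183 bp, against 3737 bp for the intermediate and 2610 bp for the closed ones, and 17170 bp over all protein-coding genes. Long genes offer more room for a peak, and the part of length in these calls was not tested.

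The clusters differed in the regions that every library called. Regions called in all 7 libraries numbered 7 of 45 at Hoxa, 8 of 45 at Hoxb, 3 of 55 at Hoxc and 2 of 14 at Hoxd, which is 20 of 159 in all. At 12.6% this matched the share over all regions, 12.5%. Inside the clusters themselves such regions stood at 4.74 per 100 kb in Hoxa, 4.60 in Hoxb, 2.06 in Hoxd and 0.864 in Hoxc. As joined over all libraries, they spanned 9.10% of the Hoxa and 9.08% of the Hoxb cluster, but 1.76% of Hoxd and 0.683% of Hoxc. Peaks of a single library often covered less than the joined span. At chr6:52191058-52192601, inside Hoxa3, the span was 1544 bp and the I-BET library covered 384 bp of it.

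Strength was compared as a percentile: peaks of a library were ranked by the authors' -log10 p after each list had been shortened to its 117175 strongest peaks, and 100 is the strongest. Values below are the strongest peak within 1 kb of a gene, given for replicate 1 and then replicate 2. They rank peaks within one library and are not amounts of open chromatin. Many peaks had equal -log10 p and so share a percentile: the largest such group held 2.88% to 23.0% of a shortened list, 21.1% in untreated replicate 1 and 23.0% in I-BET. Peaks tied at the lowest kept value were kept in order of chromosome, which left out 0 to 5 tied Hox peaks in the other libraries and 18 in I-BET.

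Hoxa3, a gene of the pharyngeal arches and thymus, ranked at 85.7 and 74.9 in the RANKL+I-BET libraries, 80.6 and 78.7 in the RANKL libraries and 78.7 in the I-BET library, against 93.8 and 80.9 in the untreated libraries. Hoxa4 lies inside the long Hoxa3 transcript unit and shared its region chr6:52191058-52192601. Its own values were 85.7 and 73.8 in RANKL+I-BET, 80.6 and 75.1 in RANKL and 78.7 in I-BET, against 93.8 and 76.2 in untreated cells. Both genes were highest in untreated replicate 1. Hoxa10 was weaker, at 62.6 and 64.0 in RANKL+I-BET, 66.2 and 77.0 in RANKL and 52.3 in I-BET, against 71.7 and 56.2 in untreated cells. Its region (chr6:52240126-52240893) reached the start of the longer transcript.

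Other Hoxa genes were called in part of the libraries. Hoxa9, the member most tied to leukaemia, had a peak in 5 libraries. In 3 of them, replicate 2 of RANKL+I-BET, RANKL and untreated cells, this was the edge of the region chr6:52221340-52222149, which reached into the 1 kb margin there and ranked at 79.3, 81.8 and 81.6. That region was called in all 7 libraries, with its midpoint 1352 bp from the gene. Hoxa7 and Hoxa11 had a peak in 6 libraries each, Hoxa7 missing in RANKL replicate 1 and Hoxa11 in untreated replicate 1. Hoxa13, the most posterior gene, was missing in RANKL+I-BET replicate 1. Hoxa2 is a gene of hindbrain and neural crest and had a peak in 2 libraries, in its 1 kb margin only. Hoxa6 had a peak only in untreated replicate 1, and Hoxa5, a gene of lung and gut development, in none.

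In the Hoxb cluster the open genes lay side by side, with the closed Hoxb5 between Hoxb6 and Hoxb3. Hoxb4, known for expanding blood stem cells when forced on, ranked at 87.0 and 85.6 in RANKL+I-BET, 83.0 and 85.3 in RANKL and 86.8 in I-BET, against 90.4 and 85.2 in untreated cells. Its region (chr11:96317666-96320397) covers the start printed above. Hoxb3, which overlaps Hoxb4, had 87.0 and 85.6 in RANKL+I-BET, 83.9 and 85.3 in RANKL and 90.2 in I-BET, against 90.4 and 87.4 in untreated cells. For Hoxb3, though not for Hoxb4, both untreated values lay above those of the RANKL and RANKL+I-BET libraries.

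Hoxb7 and Hoxb8, of which Hoxb8 blocks myeloid maturation when kept on, shared their strongest peak (region chr11:96283940-96288017, 4078 bp). Both genes ranked at 81.0 and 87.3 in RANKL+I-BET, 72.4 and 85.0 in RANKL and 87.4 in I-BET, against 91.0 and 88.3 in untreated cells. Hoxb6 ranked at 73.3 and 76.4 in RANKL+I-BET, 71.7 and 80.6 in RANKL and 79.7 in I-BET, against 82.9 and 87.4 in untreated cells. For these genes too the untreated libraries stood above all RANKL and RANKL+I-BET libraries. Of the remaining Hoxb genes, Hoxb9 was called in 3 libraries, Hoxb13, a gene of the tail and prostate, in 3, Hoxb2 in 1, and Hoxb1 and Hoxb5 in none.

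**Figure D3:**
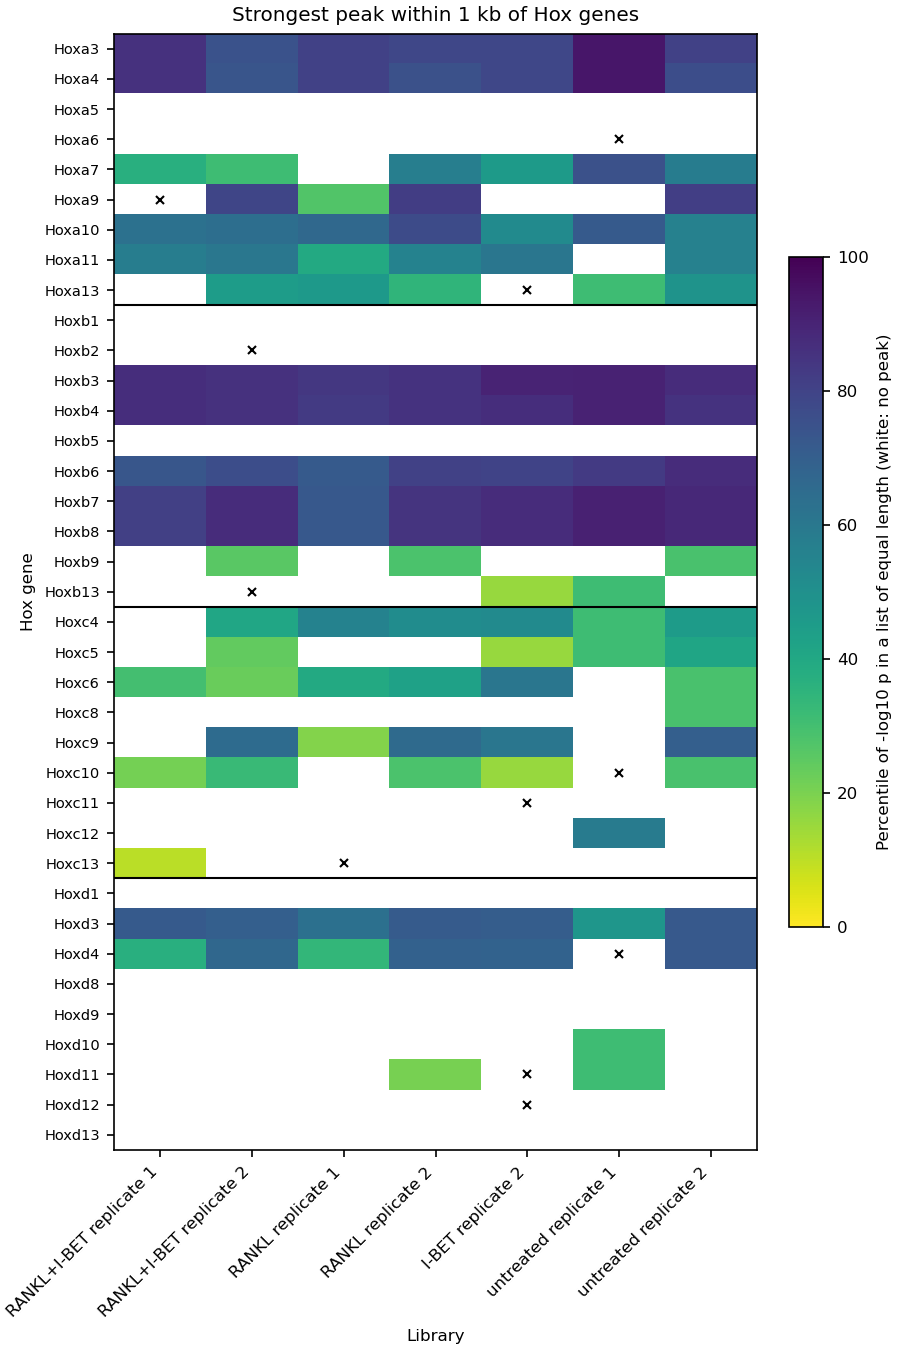
Percentile of the strongest peak within 1 kb of Hox genes (rows, in the Hoxa cluster from Hoxa3 on) in each of the 7 libraries (columns), from 0 to 100 within lists of equal length. White is no peak, a cross is a peak outside the 117175 strongest of its library, and horizontal lines divide the clusters. The darkest full rows are Hoxb3, Hoxb4, Hoxb7 and Hoxb8, while the rows of Hoxc are paler and those of Hoxd8 to Hoxd13 and Hoxd1 mostly empty.

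The heat map of the genes shows the Hoxc cluster with no open and no closed member. All 9 of its genes were called in 1 to 6 libraries. Hoxc4, Hoxc6 and Hoxc10 had a peak in 6, Hoxc9 in 5, Hoxc5 in 4, Hoxc13 in 2, and Hoxc8, Hoxc11 and Hoxc12 in 1. Its 1 region inside the cluster called in all 7 libraries (chr15:102963452-102964241, 2949 bp from Hoxc10) ranked at 64.0 and 56.7 in RANKL+I-BET, 55.6 and 67.3 in RANKL and 52.3 in I-BET, against 47.5 and 53.9 in untreated cells. The other 2 constant Hoxc regions lay outside the cluster, 50547 bp and 56575 bp from Hoxc4 (chr15:103087046-103087759 and chr15:103092792-103094070). The region near Hoxc10 was the one constant Hox region that ranked above both untreated libraries in the RANKL libraries. Hotair, the noncoding RNA gene between Hoxc11 and Hoxc12 known for work on Polycomb targeting, had a peak in the 6 libraries other than untreated replicate 1.

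In the Hoxd cluster the open pair was Hoxd3 and Hoxd4, and the limb and genital genes from Hoxd8 to Hoxd13 had few peaks. Hoxd3 ranked at 71.9 and 69.8 in RANKL+I-BET, 63.0 and 71.4 in RANKL and 70.6 in I-BET, against 47.5 and 72.2 in untreated cells. Hoxd4 ranked at 36.9 and 66.8 in RANKL+I-BET, 33.9 and 69.1 in RANKL and 68.7 in I-BET, against 72.2 in untreated replicate 2, while its peak in untreated replicate 1 fell outside the strongest 117175. Their constant regions were chr2:74715658-74716437 and chr2:74722749-74723673. The groups overlapped for both genes. Hoxd11 was called in 3 libraries, Hoxd10 and Hoxd12 in 1 each, and Hoxd8, Hoxd9, Hoxd13 and Hoxd1 in none. A region 1458 bp from Hoxd13 (chr2:74672722-74673400) was called in 6 libraries.

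The microRNA genes inside the clusters ranged from 0 to 7 libraries with a peak. They are shown because Mir10a and Mir10b share a seed (bases 2 to 8, in capitals) and lie at the paralogs Hoxb4 and Hoxd4, and because the Mir196 genes share another seed and lie beside genes of group 9. Sequences are from RefSeq (GRCm38.p6).
miR-10a-5p: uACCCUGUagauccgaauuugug
miR-10b-5p: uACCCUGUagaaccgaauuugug
miR-196a-5p: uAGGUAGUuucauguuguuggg
miR-196b-5p: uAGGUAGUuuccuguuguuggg

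Mir10a (chr11:96317165-96317274) had a peak within 1 kb in all 7 libraries, that of the Hoxb4 region, and Mir10b (chr2:74726070-74726137) in 0, although Hoxb4 and Hoxd4 were both open. Mir196a-1 in the Hoxb cluster had one in 4 libraries, Mir196a-2 in the Hoxc cluster in 3 and Mir196b in the Hoxa cluster in 1. Mir615, inside Hoxc5, had one in 2. Of the 24 long noncoding RNA genes in the clusters 7 were open by the rule used for Hox genes, with its 1 kb margin, 13 intermediate and 4 closed.

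The share of peaks that lay at Hox genes did not separate the treatments. Numbers of Hox peaks were 55 and 78 in RANKL+I-BET, 70 and 77 in RANKL and 91 in I-BET, against 59 and 72 in untreated cells, out of 117175 to 166369 peaks in a library. As shares these were 0.0439% and 0.0469% in RANKL+I-BET, 0.0454% and 0.0581% in RANKL and 0.0636% in I-BET, against 0.0431% and 0.0614% in untreated cells. The exact 95% intervals (Clopper-Pearson, counting error only) ran from 0.0328% to 0.0557% in untreated replicate 1, the lowest, and from 0.0512% to 0.0780% in I-BET, the highest.

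**Figure D4:**
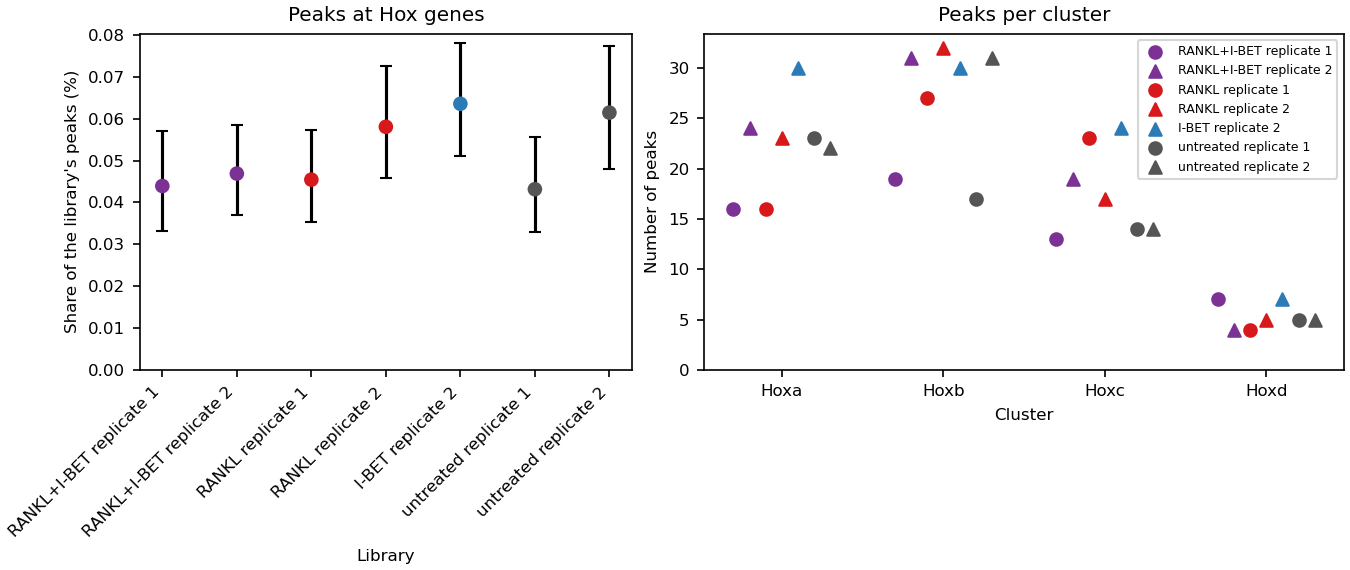
Left, the share of each library's peaks that lay at Hox genes (y axis, percent) with exact 95% binomial intervals, which cover counting error only. Right, the number of these peaks in each cluster, 1 symbol a library, circles for replicate 1 and triangles for replicate 2. In the left panel replicate 2 lies above replicate 1 in each group that has both, and the spread within untreated cells, 0.0431% to 0.0614%, spans nearly the whole range.

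The plot of shares shows that the groups overlapped. RANKL libraries averaged 0.0517% ± 0.0089 and untreated libraries 0.0523% ± 0.0129 (SD, n = 2 each), a difference of -0.000551 percentage points (p = 1.0, two-sided exact permutation test). RANKL+I-BET libraries averaged 0.0454% ± 0.0021, with a difference of -0.00635 points from RANKL (p = 0.667, exact permutation test) and of -0.0069 points from untreated cells (p = 1.0, exact permutation test). With 2 libraries against 2 this test cannot give a p below 0.333. Replicate 2 exceeded replicate 1 by 0.00297 points in RANKL+I-BET, 0.0126 in RANKL and 0.0183 in untreated cells. Within replicate number 1 the difference between RANKL and untreated cells was 0.00229 points and within number 2 it was -0.00339, so its sign changed. RANKL+I-BET minus RANKL was -0.00152 within number 1 and -0.0112 within number 2, lower in both, and RANKL+I-BET minus untreated was 0.000768 and -0.0146.

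Few Hox regions were called in one treatment and not in the other. RANKL was set against untreated cells over the 120 Hox regions called in at least 1 of their 4 libraries. Both RANKL libraries and neither untreated library called 2 of these, where 3.37% of all regions were so called, and both untreated and neither RANKL library called 2, where the share of all regions was 0.748%. All 4 libraries called 24 of the 120, against 18.2% of all regions. Counts of 2 are too few to be read as a difference from the shares of all regions.

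The 2 regions of RANKL were near Hoxb13 (chr11:96199544-96200161, 3243 bp away) and inside Hoxc4 (chr15:103035423-103035834). The Hoxb13 region was outside the strongest 117175 in RANKL replicate 1, ranked at 46.2 in RANKL replicate 2, and had a peak in 2 further libraries, those of RANKL+I-BET replicate 2 and I-BET. The Hoxc4 region ranked at 18.4 and 2.50 in the RANKL libraries and was called in no other library. Those of untreated cells were inside Hoxb8 (chr11:96283043-96283446, at 71.7 and 20.3, also in RANKL+I-BET replicate 2) and inside Hoxb6 (chr11:96297216-96297526, outside the strongest peaks in untreated replicate 1 and at 20.3 in replicate 2). Nearly all of these calls were weak, and 0 of the 4 regions was left when peaks needed a -log10 q of 5 or more. Requiring fewer libraries raised most counts. The matching shares of all regions are not given, so the raised counts are not read as a trait of Hox regions. For RANKL they were 18 when untreated replicate 2 was left out, 14 without RANKL replicate 1 and 20 without its replicate 2. For untreated cells they were 5 without RANKL replicate 2, 11 without untreated replicate 1 and 24 without untreated replicate 2.

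When I-BET was added to RANKL, 0 Hox regions of 115 were found in both RANKL+I-BET libraries and neither RANKL library, where 1.86% of all regions were. The Hoxc4 region above was the only 1 called in both RANKL and neither RANKL+I-BET library, against 0.571% of all regions, and 30 Hox regions were in all 4 libraries (26.1% against 26.8%). RANKL+I-BET was also set against untreated cells, over 117 Hox regions. Here 2 were found in both RANKL+I-BET libraries and neither untreated library, near Hoxb1 (chr11:96400714-96401287, 32747 bp away) and inside Hoxc6 (chr15:103009299-103009736), against 3.73% of all regions. The Hoxb1 region ranked at 10.5 and 25.4 and the Hoxc6 region at 29.7 and 12.5 in the RANKL+I-BET libraries. Both were also called in the I-BET library and in 1 RANKL library, replicate 1 for Hoxb1 and replicate 2 for Hoxc6. In the other direction there was 1 region, the Hoxb6 region above, against 0.458% of all regions, and 22 Hox regions were in all 4 libraries (18.8% against 17.9%). These comparisons share RANKL or untreated libraries. The counts that follow, with a library left out, stand without shares of all regions and are not read as a trait of Hox regions. Against RANKL, the 0 regions of RANKL+I-BET became 17 without RANKL+I-BET replicate 1, 11 without its replicate 2 and 4 without RANKL replicate 2, and the 1 of RANKL became 13 without RANKL+I-BET replicate 2, 11 without RANKL replicate 1 and 16 without its replicate 2. Against untreated cells, the 2 of RANKL+I-BET became 18 without its replicate 1, 13 without its replicate 2 and 13 without untreated replicate 2, and the 1 of untreated cells became 7 without RANKL+I-BET replicate 2, 5 without untreated replicate 1 and 24 without untreated replicate 2. At the level of whole genes, Hoxc5 had a peak in both untreated and neither RANKL library, as had 0.32% of all protein-coding genes. Its peaks in the 2 untreated libraries lay in different regions. Hoxa2 was called, through its 1 kb margin, in both RANKL+I-BET libraries alone. Of all protein-coding genes 0.37% were so placed against RANKL and 0.585% against untreated cells. Without the 1 kb margin Hoxa2 had no peak in any library, so its call rests on the margin. The call reflects how far the edge of a neighbouring peak reached, and not a peak found in these libraries alone.

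Among the 20 constantly called Hox regions, ranks in shortened lists were often lower with RANKL than in untreated cells in the Hoxb cluster. The I-BET library, which also lacks RANKL, was not part of the counts that follow. Both RANKL libraries ranked below both untreated libraries in 7 of 20, where 15.3% of all regions called in all 7 libraries did, and above them in 1, where 14.2% did. Of these 7, 5 were among the 8 Hoxb regions (2 at Hoxb7, 2 at Hoxb6 and 1 at Hoxb3), with 1 at Hoxa3 and 1 near Hoxc4. In the I-BET library these Hoxb regions ranked at 87.4 and 64.0 (Hoxb7), 79.7 and 76.5 (Hoxb6) and 90.2 (Hoxb3). The lower Hoxb7 value and both Hoxb6 values lay between those of the RANKL libraries (58.9 and 65.3, 71.7 and 80.6, 61.7 and 76.6). The higher Hoxb7 value and the Hoxb3 value lay above both RANKL libraries. Of the 5, only the Hoxb3 value lay above both untreated libraries. The median difference in percentile, RANKL minus untreated, was -3.26 over the 20 Hox regions and 0.0367 over all 43170 such regions. No test was made, since the regions of a cluster are not replicates.

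RANKL+I-BET was set against the same untreated libraries. Both RANKL+I-BET libraries ranked below both untreated libraries in 8 of 20 regions, where 12.2% of all regions did, and above in 2, where 14.0% did. RANKL+I-BET against RANKL gave 2 above and 2 below, where 10.4% and 5.98% of all regions were so placed. With lists of full length the counts below untreated cells were 3 for RANKL and 0 for RANKL+I-BET, against 6.81% and 2.50% of all regions. Ranks from lists of different length are not on one scale, and the shares of all regions fell as well. Without untreated replicate 1 they were 11 and 13, against 34.7% and 32.2% of all regions, and without untreated replicate 2 they were 11 and 12, against 36.9% and 34.8%. Without RANKL replicate 1 the RANKL count was 8, against 31.6% of all regions, and without RANKL replicate 2 it was 10, against 29.7%. The RANKL+I-BET count was 9 without its replicate 1 and 9 without its replicate 2, against 28.7% and 25.8%.

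**Figure D5:**
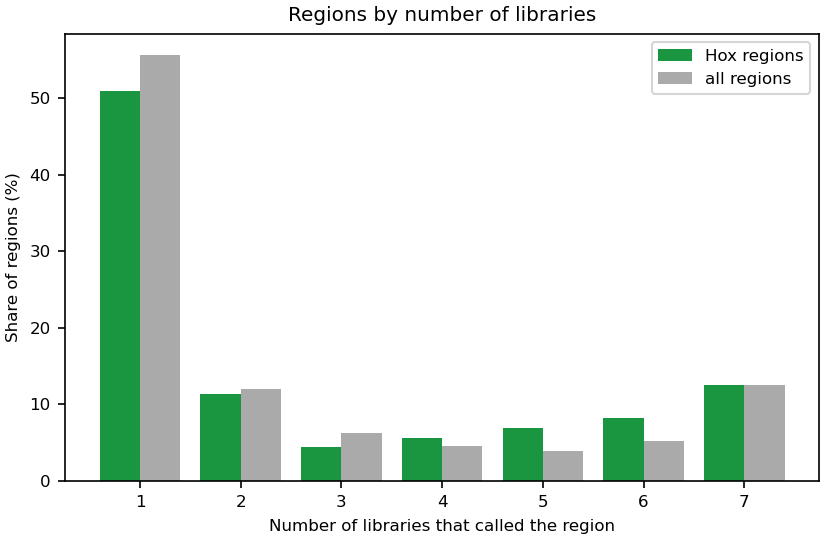
Share of regions (y axis, percent) by the number of libraries that called them (x axis), for the 159 Hox regions and all 344401 regions. Both sets are highest at 1 library, with 50.9% of Hox regions and 55.6% of all regions, and hold 12.6% and 12.5% in all 7. Hox regions stand higher at 5 libraries, 6.92% against 3.88%, and at 6 libraries, 8.18% against 5.21%, and these differences were not tested.

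Many Hox regions were called in a single library, as were many of all regions. The plot by number of libraries shows that 81 of the 159 (50.9%) were called in 1 library, against 55.6% of all regions. Of the Hox regions called in untreated replicate 1, 20 (36.4%) were in no other library, against 42.9% of all its regions. Of the 13 Hox regions called in 6 libraries, 10 were missing in untreated replicate 1 alone, as were 76.4% of all regions called in 6. In that library 25.3% of peaks had a -log10 q of at least 5, against 36.8% to 74.0% in the others. Without it 13 Hox genes were open, Hoxa11 and Hoxc6 being added, and 10 were closed. The matching shares of all protein-coding genes are not given.

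In the single I-BET library 76 Hox regions were called. Of these 26 (34.2%) were in neither untreated library, against 38.5% of all its regions. Of 29 Hox regions called in both untreated libraries 24 were called with I-BET (82.8%), against 89.7% of all such regions, and the 5 absent ones were at Hoxb6 (2), Hoxb8, Hoxa13 and Hoxc4. With 1 library these values have no replicate.

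Genes that work with or on the Hox clusters were all open. This held for 9 of 9 cofactor genes of the Pbx, Meis and Pknox families, which bind DNA with Hox proteins, among them Meis1, Meis2 and Meis3. It held for 30 of 30 Polycomb genes, 17 of 17 trithorax and MLL partner genes, and 8 of 8 genes of CTCF and cohesin, which fold the clusters. These genes are long, with list medians of 29932.5 to 139224 bp, against 3737 bp for Hox genes. Other homeobox genes were nearer to the Hox genes, with 23 open, 30 intermediate and 7 closed of 60. Their open members included Alx4, Cdx1, Dlx1 and Dlx2, and the closed ones Alx1, Cdx4, Evx2 and Gsx2.

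Macrophage markers such as Csf1r and Spi1 were open in 10 of 10 cases. Markers of other cell types were often open too: 4 of 5 of B lymphocytes, 3 of 5 of T lymphocytes, 4 of 6 of fibroblasts and osteoblasts and 3 of 5 of erythroid cells, of which Hbb-bs was closed. An open call thus did not separate these cell types, and it gives no level of RNA.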

How the data were processed

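ATAC-seq was made from 50000 RAW264.7 cells per library and read as paired ends of 100 bases, per the labels' protocols. Per the submitters' processing notes, MACS2, Bowtie2, SAMtools, bedtools, Picard, cutadapt and FastQC were used on mm10, with versions and settings not given in the sources used here. Each library has its own deposited list, so none were pooled. Each deposited peak carries a fold (ratio of pileup to background), a score and the -log10 of its q-value and p-value. These are the authors' values and were used only within a list. The lowest deposited -log10 p was 2.01. Read depth is unknown from these lists, which held 117175 to 166369 peaks.

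Genes came from RefSeq (GRCm38.p6, the mm10 assembly), on the autosomes, X and Y. A peak inside several Hox genes went to the shortest. A library called a region with at least 1 bp of peak, so a change within a shared region was not counted. Percentiles used lists of equal length (117175 peaks). Code was tested on simulated data. Shares were compared by exact permutation tests over libraries, and region counts were described without a test. Samples were grouped by the treatment label. One Hox gene is counted but its values are not reported here. Values per library are given for the other open genes and for genes with a region of one treatment alone, and positions for at most 5 regions per cluster, ranked by number of libraries and then by percentile, besides those. The region at Hoxa10 lies outside that rule and was chosen after its values were seen. The Hox members, gene lists and tests were chosen with earlier results of these data known. The rank comparison of constant regions, the start-site window and the comparisons within replicate numbers were picked once the data had been seen. Alternatives tried were a -log10 q of 5 or more, equal list lengths, 50 kb in place of 100 kb, covered bases in place of peaks, 50% cover of a region, other gene windows, a replicate block and leaving out each library. Python 3.11.15 was used with pandas 2.3.3, NumPy 2.4.6 and SciPy 1.17.1.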

Additional observations from a re-analysis of the deposited data

Results flagged for a closer look

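Of the 4 clusters, Hoxc was the one where the libraries with I-BET stood on opposite sides of their comparators without and with RANKL. The I-BET library had 0.0168% of its peaks at Hoxc genes, above the untreated libraries at 0.0102% and 0.0119%. With RANKL the share was 0.0104% and 0.0114% in the RANKL+I-BET libraries, below the RANKL libraries at 0.0149% and 0.0128%. The difference between these effects was not tested, there is 1 I-BET library, and 13 to 24 peaks stand behind each share.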

How the results depend on the processing

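The sign of the difference in shares from untreated cells changed with the library left out, and that of RANKL+I-BET minus RANKL stayed negative under every alternative run. The difference of RANKL minus untreated ran from -0.0097 to 0.0086 percentage points when one library was left out, with 0.00576 without RANKL replicate 1 and 0.0086 without untreated replicate 2. It was 0.00229 within replicate number 1. RANKL+I-BET minus untreated ran from -0.016 to 0.00225, with 0.000768 within replicate number 1, and RANKL+I-BET minus RANKL from -0.0127 to -3.45e-05. A stricter threshold, equal list lengths, 50 kb and covered bases kept the sign of all 3 differences. A replicate block gave differences of -0.000551, -0.00635 and -0.0069 for RANKL minus untreated, RANKL+I-BET minus RANKL and RANKL+I-BET minus untreated (p = 1.0, 0.5 and 1.0, exact sign-flip test over 2 pairs). Same-numbered libraries deviated together over genes (r = 0.519, 0.534 and 0.348), but with 2 pairs the numbers were not taken as pairing them.

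Counts of regions depended on the setting. They stand here without the shares of all regions. Regions called in all 7 libraries numbered 10 with a -log10 q of at least 5, 9 with 50% cover, and 20 to 30 with a library left out. With that stricter q each count of regions of one treatment was 0. Leaving out a library gave 3 to 20 regions for RANKL and 2 to 24 for untreated cells in the first comparison, 1 to 17 for RANKL+I-BET and 1 to 16 for RANKL in the second, and 2 to 18 for RANKL+I-BET and 1 to 24 for untreated cells in the third. Equal lengths gave 1 and 0 regions for untreated cells against RANKL and RANKL+I-BET. With 50% cover, RANKL against RANKL+I-BET had 0, and RANKL+I-BET against untreated cells had 1. Constant regions ranked below untreated cells numbered 3 (RANKL) and 0 (RANKL+I-BET) with full lists, and 8 to 11 and 9 to 13 with a library left out. The deposited fold, which orders the peaks of a library as -log10 p does, gave 7 and 8.

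Counts of genes by setting stand here without the shares of all protein-coding genes, and are not read as a trait of Hox genes. Open genes numbered 8 to 10 under other thresholds and windows, and 11 to 13 with a library left out. Over the start sites of the 22 genes with a promoter entry, 2 were open. Closed genes numbered 17 with the stricter q, 11 with equal lengths, 12 without the margin, 12 at gene ends, and 7 to 10 with a library left out. The cause was not tested. Depth is not known from peak lists, so a missing peak is a missing call and not closed chromatin.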
